A study of Mus musculus with 6 samples.

Results

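The SLC25 genes encode the mitochondrial carriers, the membrane proteins that move nucleotides, phosphate, amino acids, organic acids, cofactors and iron across the inner membrane of mitochondria. Members were taken by symbol alone (Slc25a followed by a number), which gave 47 of the 55401 genes in each count table. That rule used no measured value, but the family was chosen with earlier results of these data known. The RNA came from splenic germinal centre B cells of C57BL/6 WT mice that had all been immunized with sheep red blood cells (SRBC) into the peritoneal cavity. A challenge with SRBC followed on day 5, and spleens were taken on day 12. The cells were sorted into subsets called DN and DP, with 3 libraries each and 1 batch label for all 6, and no further treatment or allele was named for either subset. The labels do not give the surface markers behind these names, nor the ages of the mice, and tie no library to a mouse. The p-values thus cover the spread among 3 libraries a group and no more, and that spread may be technical. The comparison asked which carriers differed in transcript level between DP and DN.

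Each carrier of this family is built from repeated units of paired membrane-spanning helices and most of them exchange one small molecule for another. The ADP/ATP carriers export ATP for ADP, the phosphate carrier supplies the phosphate for ATP synthesis, and the aspartate/glutamate carriers form one arm of the malate-aspartate shuttle. Other members set the supply of folate, coenzyme A, NAD, glutathione and iron inside the organelle. Germinal centre B cells pass through rounds of rapid division and selection, and their mitochondria both respire and provide building blocks for lipids and nucleotides.

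DN libraries held 8904415 to 11897360 counts in genes and DP libraries 17509384 to 20538024. Levels are given as CPM, counts scaled to a common library total, with library sizes adjusted for composition (TMM), and values for single libraries follow replicates 1, 2 and 3. The labelled cell type was checked against 5 B cell markers, whose summed level was 2329 to 2384 CPM in DN and 1314 to 1345 CPM in DP, and against 6 germinal centre markers, at 1152 to 1159 CPM in DN and 404 to 409 CPM in DP. In DP all 5 B cell markers and 5 of the 6 germinal centre markers were lower. Markers of erythroid cells were summed to 62.1 to 72.5 CPM in DN and 15.9 to 18.3 CPM in DP, and those of macrophages to 30.7 to 34.7 and 15.1 to 17.6 CPM. All 6 tested erythroid markers and 7 of 8 tested macrophage markers were lower in DP, and the erythroid regulators Klf1, Gata1 and Epor stayed at or below 0.21 CPM in all 6 libraries. Plasma cell markers came to 387 to 398 CPM in DN and 293 to 306 CPM in DP, with 3 of 4 tested ones higher in DP. The T cell markers Cd3e, Cd3d, Cd3g, Cd8a and Trac did not pass the filter on low counts, and Lck held most of that list's sum of 49.8 to 58.3 CPM in DN and 57.7 to 60.2 CPM in DP. Of the 2 tested T cell markers, Lck was higher in DP (log2 fold change 0.19) and Cd4 lower, from 1.27 ± 0.229 to 0.570 ± 0.0218 CPM (-1.12 ± 0.37, adjusted p = 0.0054). In bulk libraries such as these, fewer cells of a type and less RNA per cell cannot be told apart.

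Of the 47 carriers, 34 passed the filter and were tested with the quasi-likelihood test of edgeR, with p-values adjusted over all 11296 tested genes. At an adjusted p under 0.05 there were 24 called members, 16 higher and 8 lower in DP. The tested members were thus called in 70.6% of cases, against 75.9% of all tested genes. Carriers were called higher in 47.1% of cases against 38.3% of all tested genes, and lower in 23.5% against 37.6%. Changes of at least 2-fold were found for 6 carriers in the upward direction (17.6% against 12.3%) and for 1 in the downward direction (2.94% against 12.8%). For 24 of the 34 tested carriers (70.6%) the DN and DP libraries did not overlap, against 77% of all tested genes. DP was the higher side for 15 of them (44.1% of tested carriers, against 39% of all tested genes) and the lower side for 9 (26.5% against 38%). The median log2 fold change, DP minus DN, was 0.36 over tested carriers and 0.0061 over all tested genes. Scaling to library totals alone moved the median of all genes to -0.19 and that of the carriers to 0.16, with 15 carriers higher and 14 lower in place of 16 and 8. The plot of fold changes by role shows the spread within the family.

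**Figure D1:**
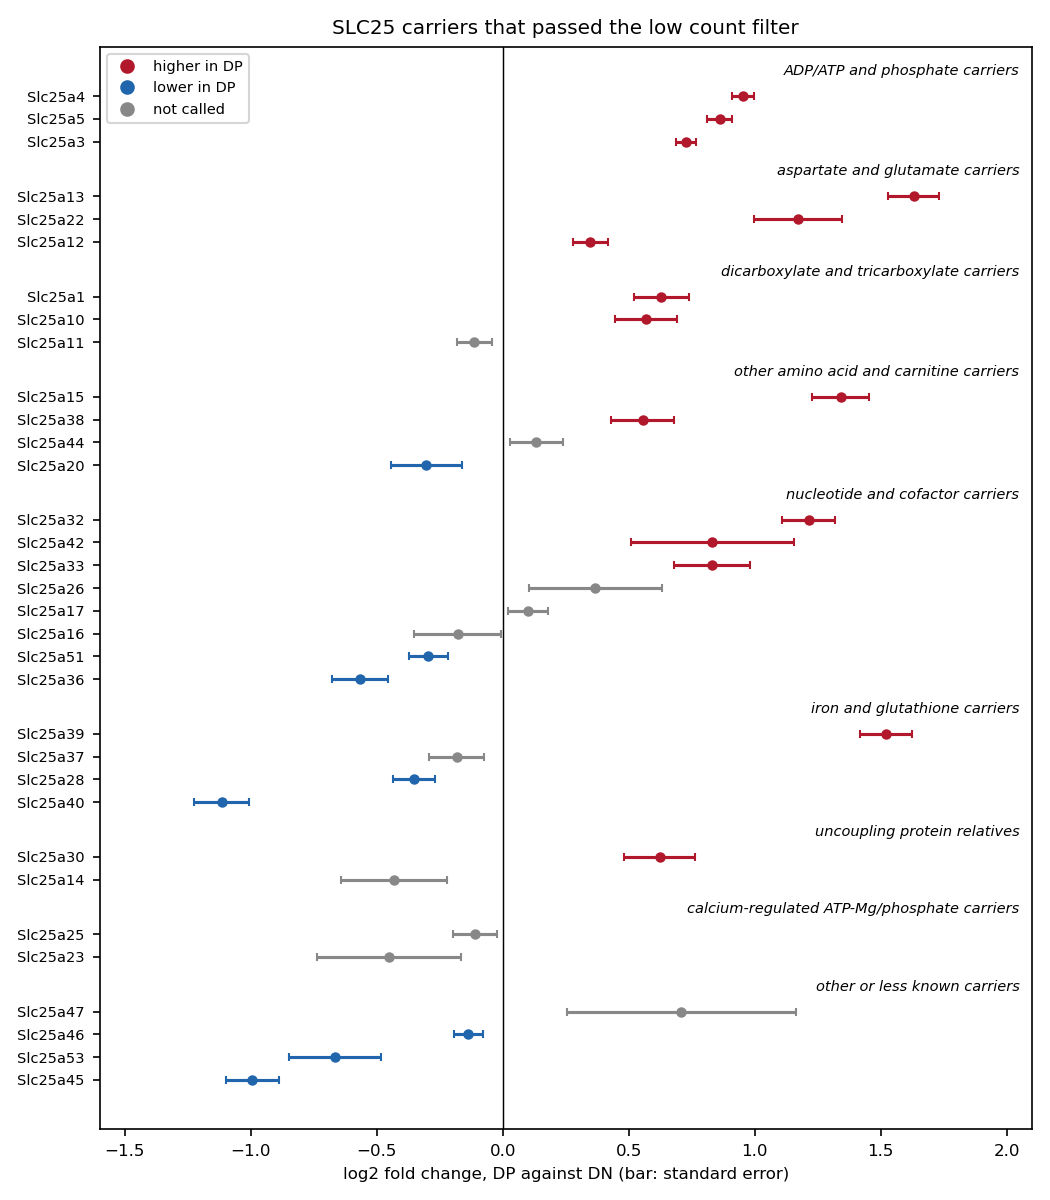
Log2 fold change of 33 of the 34 tested SLC25 carriers in DP against DN (horizontal axis), grouped by what they carry; points are edgeR estimates, bars are 1 standard error, and colour gives the call. All tested members of the ADP/ATP and phosphate group and of the aspartate and glutamate group lie to the right of 0. The iron and glutathione group holds both Slc25a39 at 1.52 and Slc25a40 at -1.12.

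The family's share of all gene counts was higher in each DP library than in any DN library. The 3 DN libraries gave 0.0902%, 0.0883% and 0.0929% of gene counts to the 47 carriers, and the 3 DP libraries 0.118%, 0.123% and 0.115%. The means were 0.0905% ± 0.00233 and 0.119% ± 0.00397 (SD, n = 3 each). An exact permutation test, two-sided, gave p = 0.1, and 3 against 3 libraries cannot give less. The summed level of all members averaged 845 ± 22.5 CPM over DN libraries and 1268 ± 37.9 CPM over DP libraries. Slc25a3 alone held 20.2% ± 0.278 of the family's counts in DN and 22.2% ± 0.211 in DP, Slc25a4 held 12.2% ± 0.110 and 15.7% ± 0.489, and Slc25a5 held 10.9% ± 0.907 and 13.1% ± 0.462. Each of these 3 shares was higher in every DP library than in any DN library (exact permutation p = 0.1 each). Without Slc25a5, whose reads could be shared with pseudogenes, the family's share was 0.0806% ± 0.00239 in DN and 0.103% ± 0.00292 in DP.

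Among the 24 called carriers, 12 kept their call under all 17 alternative settings tried, of which 10 were higher and 2 were lower in DP. The matching share over all called genes was not computed. A minimum fold of 1.5 alone took the calls over all tested genes from 8571 to 3876. Whether members that rise or fall have anything in common in their proximal promoters was looked at in the bases directly before the RefSeq gene starts (GRCm38.p6), available for 36 of the 47 members in 46 windows of 300 bases, 250 before and 50 after each start. The motif searched was CACGTG, the palindromic E-box bound by MYC/MAX and related factors, which reads the same on both strands. It was found in 8 of the 46 carrier windows (17.4%), belonging to 7 members, and in 7.15% of the 32851 windows of all genes. Counted by gene, 7 of the 36 members held it in any window, against 8.09% of all genes with a window. The windows of all genes were neither limited to tested genes nor matched to the carriers in base composition. The 2 sets are thus not like for like, and no excess in carriers can be read from them. The split by call below has no matching share over all genes called higher or lower, and no test was made. Of the carriers higher in DP, 4 of 14 with a window held it (Slc25a1, Slc25a13, Slc25a15 and Slc25a33), as did 1 of 6 lower ones (Slc25a36), 1 of 7 without a call (Slc25a14, 1 site inside both overlapping windows) and 1 of 9 not tested (Slc25a31). The 5 sites in called members are printed here in capitals, 5′ to 3′ on the gene's strand, which is the minus strand for all 5. For Slc25a13, the carrier with the largest rise, and for Slc25a1 the whole 250 bases up to the gene start are given, and for the others only the bases around the site.
Slc25a13, chr6:6217174-6217423: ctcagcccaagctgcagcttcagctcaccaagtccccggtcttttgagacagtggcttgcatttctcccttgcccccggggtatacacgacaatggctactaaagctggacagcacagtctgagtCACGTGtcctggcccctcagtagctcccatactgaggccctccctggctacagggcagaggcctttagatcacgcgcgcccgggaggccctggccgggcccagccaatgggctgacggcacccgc
Slc25a1, chr16:17928220-17928469: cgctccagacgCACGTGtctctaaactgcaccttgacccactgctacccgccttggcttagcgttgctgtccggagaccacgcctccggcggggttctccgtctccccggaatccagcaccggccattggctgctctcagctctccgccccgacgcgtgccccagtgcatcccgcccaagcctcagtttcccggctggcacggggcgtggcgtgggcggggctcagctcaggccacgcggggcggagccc
Slc25a15, chr8:22398337-22398366: cgccctgccgcaCACGTGccgcggctccgg
Slc25a33, chr4:149774258-149774287: cccggcctccgcCACGTGacggccgcgcgc
Slc25a36, chr9:97111211-97111240: cccctgggcgatCACGTGaaagaggcgtgc
The first base of the motif lay 125 bases before the start for Slc25a13, 239 for Slc25a1, 77 for Slc25a15, 8 for Slc25a33 and 187 for Slc25a36. Slc25a15 had another RefSeq start, preceded by chr8:22398622-22398871, and the window of that start held no motif. Its site lay after that other start and inside the gene's span in GENCODE M21, chr8:22375551-22398597. The motif of Slc25a33 likewise lay inside that gene's GENCODE M21 span, chr4:149744036-149774277. These are matches of letters in a window and no binding was measured.

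Of all tested genes, 38.3% were higher in DP. Among the carriers that serve ATP synthesis, all 3 tested members were higher, by 1.65-fold to 1.94-fold in mean CPM. Per kilobase of exons they were also the 3 most abundant carriers in both subsets, in the order Slc25a5, Slc25a4 and Slc25a3. That order rests on the union of exons, which is 5550 bases for Slc25a3 against 1612 in its main transcript. By CPM, with no division by length, Slc25a3 was the highest of these 3 in both subsets. Slc25a4, the ADP/ATP carrier known from heart and muscle, was at 104, 100 and 105 CPM in DN and at 206, 205 and 188 CPM in DP (103 ± 2.74 against 200 ± 10.3, SD, n = 3). Every DP library was above every DN library, and the log2 fold change was 0.95 ± 0.04 (SE; adjusted p = 2.38e-28). The related Slc25a5, the ADP/ATP carrier of proliferating cells, was measured at 83.5, 96.5 and 96.4 CPM in DN and 163, 178 and 158 CPM in DP. Again the groups did not overlap (log2 fold change 0.86 ± 0.05, adjusted p = 3.97e-20). Of the 50-base stretches of its main transcript, 46.6% also occurred in 9 other annotated genes. The deposited counts of those genes came to 63 in all 6 libraries together, against 11706 for Slc25a5 itself. How reads from shared stretches were counted is not given in the sources used here. Whether the level of Slc25a5 is too low for that reason was not tested. Slc25a3, the phosphate carrier, gave 167, 167 and 177 CPM in DN and 279, 292 and 273 CPM in DP. It thus stood 1.65-fold higher in DP with no overlap (log2 fold change 0.73 ± 0.04, adjusted p = 1.17e-24). Slc25a31, the ADP/ATP carrier of the testis, had no count in any library. Per kilobase, Slc25a4 made up 44.0% ± 2.29 of the Slc25a4 and Slc25a5 sum in DN and 45.6% ± 1.19 in DP. This difference lay within the overlap of the libraries (exact permutation p = 0.3). By CPM, with no division by length, Slc25a4 made up 52.9% in DN and 54.6% in DP.

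The plot of counts by library shows called carriers that changed in each direction.

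**Figure D2:**
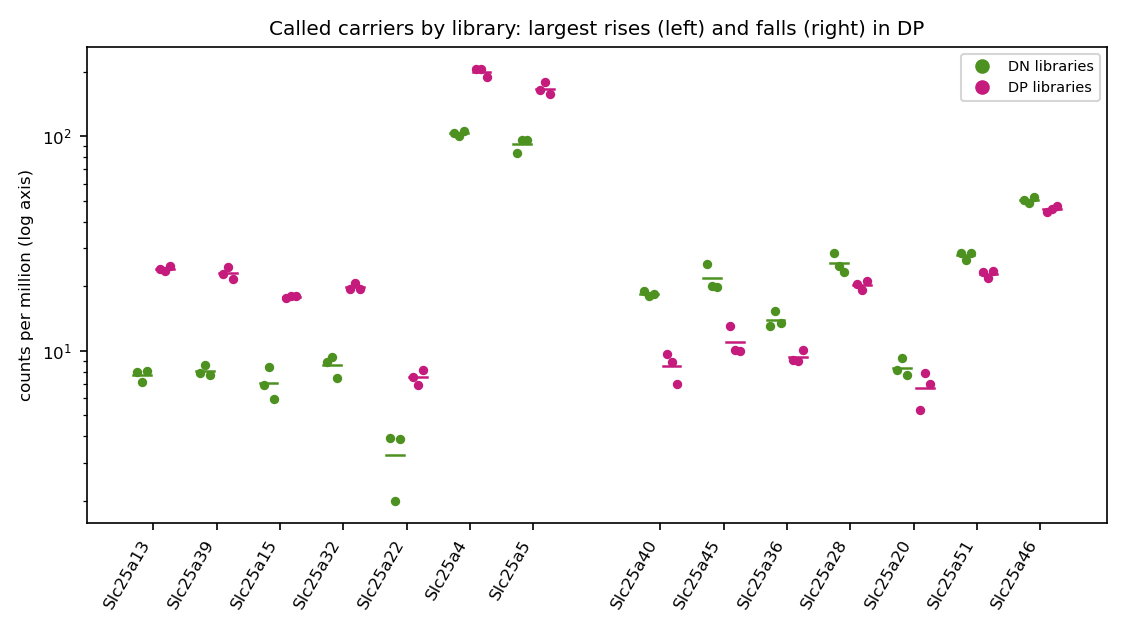
CPM (vertical, log axis) of 7 called carriers with large rises in DP and of every called fall (7), whether large or small. Only carriers averaging 5 CPM or more in the subset where they are higher were taken. Points are libraries and lines are group means (n = 3). The falls run from -1.12 (Slc25a40) to -0.14 (Slc25a46) on the log2 scale. Slc25a13 went from 7.75 to 24.1 CPM on average and Slc25a40 from 18.5 to 8.51 CPM, with no overlap of the libraries, whereas DN and DP overlap for Slc25a20.

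The aspartate and glutamate carriers had the highest median change of any role group, 1.17 on the log2 scale over 3 tested members. All 3 were higher in DP, where 38.3% of all tested genes were higher. Slc25a13 (citrin), an aspartate/glutamate carrier regulated by calcium, showed the largest rise of the family. Its levels were 8.01, 7.13 and 8.10 CPM in DN and 23.9, 23.6 and 24.7 CPM in DP. That is a 3.11-fold difference in means, far outside the spread within either subset (log2 fold change 1.63 ± 0.10, adjusted p = 6.36e-22). Its close relative Slc25a12 (aralar), which carries the same pair of substrates, rose much less, with 29.5, 30.4 and 29.1 CPM in DN and 36.7, 39.5 and 37.0 CPM in DP. The groups still did not overlap (log2 fold change 0.35 ± 0.07, adjusted p = 8.24e-06). In levels per kilobase of exons, Slc25a12 made up 65.6%, 68.8% and 65.0% of the pair in the DN libraries and 44.2%, 46.4% and 43.6% in the DP libraries. The means were 66.5% ± 2.04 and 44.7% ± 1.46, without overlap (exact permutation p = 0.1, 0.15 after adjustment over the 6 pairs compared). In CPM, with no division by length, Slc25a12 remained the larger member in both subsets, at 79.3% of the pair in DN and 61.0% in DP. The gene of Slc25a13 lies at chr6:6041218-6217173 on the minus strand (mm10).

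Slc25a22, a glutamate carrier, was at 3.93, 1.99 and 3.90 CPM in DN and 7.59, 6.93 and 8.12 CPM in DP. The DN libraries spread widely, with replicate 2 lowest, but all stayed below the DP libraries (log2 fold change 1.17 ± 0.17, adjusted p = 2.12e-08). Its paralogue Slc25a18 did not pass the filter and differed in the other direction, with 13, 6 and 18 counts in DN and 2, 5 and 4 counts in DP. The rate was 5.52 times higher in DN (95% interval 2.76 to 12.0, counting error only), and a fit without a low count filter gave a log2 fold change of -2.35 (adjusted p = 2.09e-05). Exons of Slc25a18 share 32 bases with Atp6v1e1 on the opposite strand, and the strand setting of the counting is not given in the sources used here, so reads of the overlap cannot be told apart.

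Enzymes of the malate-aspartate shuttle, which pass electrons between cytosol and mitochondria together with these carriers, were listed as 4 genes. Of these, 3 were higher and 1 was lower in DP, with a median log2 fold change of 1.00. For this list, and for the lists and carrier groups below, the shares over all tested genes were 38.3% higher and 37.6% lower in DP. Got1, the cytosolic aspartate aminotransferase, rose from 5.82 ± 0.538 to 23.7 ± 2.02 CPM (log2 fold change 2.03 ± 0.11), and the mitochondrial enzyme Got2 from 64.9 ± 1.86 to 145 ± 4.87 CPM (1.16 ± 0.05). Mdh2, the mitochondrial malate dehydrogenase, went from 136 ± 9.05 to 244 ± 5.45 CPM, while cytosolic Mdh1 was lower by 0.23 on the log2 scale. Slc25a11, the oxoglutarate/malate carrier that completes the shuttle, was not called. Its libraries read 32.7, 33.6 and 37.3 CPM in DN and 31.8, 31.2 and 32.3 CPM in DP, just short of overlapping (log2 fold change -0.11 ± 0.07, adjusted p = 0.13). Its exons share 189 bases with Rnf167 on the other strand, a gene with 242 to 353 counts in DN and 140 to 160 counts in DP.

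Among the remaining carriers of organic acids, Slc25a1 and Slc25a10 were higher in DP. The citrate carrier Slc25a1, which brings citrate to the cytosol for lipid synthesis, was at 9.11, 9.54 and 13.1 CPM in DN and 15.9, 16.9 and 15.8 CPM in DP. Replicate 3 was the highest of DN and still lay below all of DP (log2 fold change 0.63 ± 0.11, adjusted p = 8.55e-07). Slc25a10, which exchanges malate and succinate for phosphate, rose from 7.10 ± 0.126 to 10.5 ± 0.387 CPM (log2 fold change 0.57 ± 0.12, adjusted p = 4.70e-05). Slc25a21, the oxoadipate carrier, had no count in any library. Of 6 enzymes that make or use citrate, 5 were higher in DP, where 38.3% of all tested genes were higher. Fasn, the fatty acid synthase, went from 65.2 ± 5.59 to 214 ± 5.67 CPM (1.72 ± 0.05), and Acaca, acetyl-CoA carboxylase, from 34.3 ± 2.14 to 108 ± 0.909 CPM (1.65 ± 0.05). The changes of Acly, which splits the exported citrate, and of citrate synthase Cs were smaller, at 0.45 and 0.36. The remaining gene, Idh2, stood at -0.12 ± 0.06 with an adjusted p of 0.068, and was called lower in a fit with the replicate number as a block.

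Carriers of other amino acids and of carnitine were split. Slc25a15, which brings ornithine into mitochondria, was at 6.91, 8.39 and 5.95 CPM in DN and 17.66, 17.95 and 18.06 CPM in DP. The DP libraries were nearly equal and all lay above the highest DN library (2.53-fold in means, log2 fold change 1.34 ± 0.11, adjusted p = 2.89e-16). Slc25a38, a glycine carrier needed for heme synthesis, rose from 8.26 ± 2.08 to 12.1 ± 0.801 CPM (0.56 ± 0.13, adjusted p = 8.41e-05). The branched-chain amino acid carrier Slc25a44 was not called at 12.8 ± 1.89 and 14.1 ± 0.696 CPM, and its sign turned to -0.063 with library totals alone. Of 8 enzymes of ornithine, proline and glutamate metabolism, 7 were tested, 6 were higher and 1 lower in DP. Aldh18a1, which starts proline and ornithine synthesis from glutamate, went from 17.3 ± 0.907 to 43.8 ± 3.03 CPM (1.33 ± 0.08), and Prodh, proline dehydrogenase, from 2.35 ± 0.243 to 8.58 ± 0.929 CPM (1.87 ± 0.18). Ornithine aminotransferase Oat moved by 0.14 only. Glud1, glutamate dehydrogenase, was the lower one at -0.26.

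Slc25a20, the carnitine/acylcarnitine carrier that admits fatty acids for oxidation, was lower in DP by a small margin. It had 8.17, 9.23 and 7.69 CPM in DN and 5.28, 7.86 and 7.02 CPM in DP, and the groups overlapped (log2 fold change -0.30 ± 0.14, adjusted p = 0.046). The call was lost without DP replicate 1 (-0.15, adjusted p = 0.356), and also without DN replicate 1, DN replicate 2 or DP replicate 3, where the adjusted p lay between 0.058 and 0.182. The carnitine shuttle and fatty acid oxidation list around it, 9 genes, had 2 higher and 5 lower members and a median of -0.36. Cpt1a, which makes the acylcarnitines that Slc25a20 carries, fell from 72.0 ± 1.06 to 15.3 ± 0.468 CPM (-2.23 ± 0.07), and Crat, carnitine acetyltransferase, from 17.6 ± 1.51 to 6.96 ± 0.394 CPM (-1.33 ± 0.11). Hadh rose from 16.2 ± 0.960 to 34.5 ± 1.43 CPM, and Cpt2 was not called (0.04 ± 0.14).

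Nucleotide and cofactor carriers formed the largest role group, with all 9 members tested, 4 higher and 2 lower in DP. Slc25a32, a carrier of folate and FAD, was at 8.87, 9.33 and 7.48 CPM in DN and 19.5, 20.8 and 19.4 CPM in DP. All DP libraries were above all DN libraries (log2 fold change 1.21 ± 0.11, adjusted p = 6.26e-16). Mitochondrial one-carbon metabolism, which uses the folate inside the organelle, was listed with 9 enzymes, of which 6 were tested. All 6 were higher in DP, with a median of 1.30, where 38.3% of all tested genes were higher. Shmt2, which moves a carbon from serine to folate, went from 194 ± 9.64 to 506 ± 8.44 CPM (1.39 ± 0.04). Mthfd2 rose from 73.9 ± 3.99 to 171 ± 2.66 CPM (1.21 ± 0.05), and Gcsh, a subunit of the glycine cleavage system, from 6.65 ± 0.180 to 62.8 ± 1.02 CPM (3.24 ± 0.09). Gldc, the glycine decarboxylase of the same system, had no count in any library, and Amt did not pass the filter. The serine carrier of the inner membrane, Sfxn1, which belongs to another family, rose as well, from 65.3 ± 1.62 to 148 ± 3.26 CPM (1.17 ± 0.05).

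The pyrimidine nucleotide carriers Slc25a33 and Slc25a36 moved in opposite directions. Slc25a33 was at 4.87, 4.40 and 4.10 CPM in DN and 7.59, 8.79 and 7.51 CPM in DP (log2 fold change 0.83 ± 0.15, adjusted p = 1.89e-06). Slc25a36 was at 13.0, 15.3 and 13.5 CPM in DN and 9.069, 9.002 and 10.1 CPM in DP (-0.57 ± 0.11, adjusted p = 7.42e-06). Neither gene's libraries overlapped between the subsets. Per kilobase, Slc25a33 made up 65.5%, 59.4% and 60.6% of the pair in DN and 81.0%, 83.2% and 79.0% in DP, with means of 61.8% ± 3.23 and 81.1% ± 2.11 (exact permutation p = 0.1, adjusted 0.15). By CPM, with no division by length, Slc25a33 was the smaller member in both subsets, at 24.3% in DN and 45.8% in DP. In the list of mitochondrial DNA and nucleotide genes, 9 tested genes split into 3 higher and 5 lower. Twnk, the mitochondrial DNA helicase, rose from 16.2 ± 2.105 to 87.6 ± 5.07 CPM (2.43 ± 0.07). Of the genes that supply nucleotides to mitochondria, Rrm2b fell from 155 ± 7.16 to 41.6 ± 3.79 CPM (-1.91 ± 0.05) and Cmpk2 fell from 20.3 ± 0.951 to 6.33 ± 0.862 CPM (-1.68 ± 0.11).

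Slc25a42, a carrier of coenzyme A, was called higher at a low level, from 0.978 ± 0.219 to 1.73 ± 0.537 CPM, and its libraries overlapped (0.83 ± 0.32, adjusted p = 0.0181). That call was lost without DN replicate 1, DN replicate 2 or DP replicate 3, with adjusted p-values of 0.0652, 0.052 and 0.123. Slc25a51, the NAD carrier, fell slightly. It was at 28.6, 26.4 and 28.7 CPM in DN and 23.2, 21.7 and 23.4 CPM in DP, which did not overlap (-0.30 ± 0.08, adjusted p = 0.000526). The other cofactor carriers were not called. These were Slc25a26, the S-adenosylmethionine carrier, at 0.37 ± 0.26, Slc25a16 at -0.18 ± 0.17, and Slc25a17, which sits in peroxisomes, at 0.10 ± 0.08. Without DN replicate 1 the estimate for Slc25a16 changed sign to 0.070, and with library totals alone that for Slc25a17 changed sign to -0.095.

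The glutathione and iron carriers held the widest contrast of the family. Slc25a39, which brings glutathione into mitochondria, was at 7.85, 8.60 and 7.69 CPM in DN and 22.7, 24.7 and 21.6 CPM in DP. It stood 2.86-fold higher in DP, with no overlap (log2 fold change 1.52 ± 0.10, adjusted p = 3.08e-20). Its relative Slc25a40 was at 19.1, 17.9 and 18.3 CPM in DN and 9.66, 8.85 and 7.02 CPM in DP. This was the largest fall of a carrier, 2.17-fold, and again without overlap (-1.12 ± 0.11, adjusted p = 3.95e-14). Per kilobase, Slc25a39 made up 55.6%, 59.3% and 56.0% of the pair in DN and 87.7%, 89.5% and 90.4% in DP. The means, 57.0% ± 2.04 and 89.2% ± 1.33, lay far apart (exact permutation p = 0.1, adjusted 0.15). By CPM, with no division by length, Slc25a39 was the smaller member in DN, at 30.4%, and the larger in DP, at 73.1%. In rank by level per kilobase among the 47 members, Slc25a39 went from 15 to 8 and Slc25a40 from 18 to 27. In mm10, Slc25a39 lies at chr11:102402985-102407946 on the minus strand and Slc25a40 at chr5:8422850-8454797 on the plus strand.

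All 8 listed enzymes of glutathione metabolism were tested, and 6 were higher and 2 lower in DP. The shares over all tested genes were 38.3% and 37.6%. Gsr, which regenerates glutathione, rose from 2.31 ± 0.546 to 10.2 ± 0.487 CPM (2.15 ± 0.17), the synthase Gss from 4.21 ± 0.735 to 10.9 ± 0.551 CPM (1.39 ± 0.14), and mitochondrial Glrx5 from 15.3 ± 0.447 to 38.3 ± 1.05 CPM (1.32 ± 0.08). Gclc, the catalytic subunit of the first enzyme of glutathione synthesis, was slightly lower (-0.19), as was Gpx1 (-0.10, with overlapping libraries).

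Neither iron carrier rose. Slc25a28 (mitoferrin 2), the widely expressed form, was at 28.7, 25.0 and 23.3 CPM in DN and 20.4, 19.2 and 21.1 CPM in DP, so it fell without overlap (-0.35 ± 0.08, adjusted p = 0.00015). Slc25a37 (mitoferrin 1), the form known from erythroid cells, was at 13.3, 11.4 and 12.8 CPM in DN and 10.9, 11.7 and 10.6 CPM in DP, with overlap and no call (-0.18 ± 0.11, adjusted p = 0.121). Slc25a28 made up 76.6% ± 1.85 of this pair per kilobase in DN and 74.6% ± 1.82 in DP (exact permutation p = 0.3). In the list of mitochondrial heme and iron-sulfur genes, 10 tested, 4 were higher and 2 lower, with Cpox, an enzyme of heme synthesis, from 26.1 ± 2.65 to 47.7 ± 3.41 CPM (0.88 ± 0.07) and the heme-linked transporter Abcb10 from 20.4 ± 2.14 to 13.2 ± 0.728 CPM (-0.63 ± 0.10). Slc25a37, Slc25a38, Slc25a28 and Slc25a39 are also active in red cell precursors, and the summed erythroid markers given above differed between the subsets, lower in DP in 6 of 6 tested. Alas2, the erythroid heme enzyme, was at 17.5 to 21.3 CPM in DN and 4.35 to 6.82 CPM in DP. The part of such RNA in the values of these 4 carriers was not tested.

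The carriers related to the uncoupling proteins also changed unequally. Slc25a30 was at 5.81, 4.93 and 5.33 CPM in DN and 8.83, 8.33 and 7.75 CPM in DP (log2 fold change 0.62 ± 0.14, adjusted p = 8.73e-05). Slc25a14 was at 3.53, 3.15 and 3.38 CPM in DN and 2.73, 2.12 and 2.69 CPM in DP. Its libraries did not overlap, but it missed the threshold (-0.43 ± 0.21, adjusted p = 0.0597). Per kilobase, Slc25a14 made up 54.8% ± 0.656 of this pair in DN and 36.8% ± 3.59 in DP, without overlap (exact permutation p = 0.1, adjusted 0.15). By CPM, with no division by length, Slc25a14 was the smaller member in both subsets, at 38.5% in DN and 23.2% in DP. The uncoupling protein Ucp2 itself, a carrier of the same family under another name, fell from 408 ± 17.8 to 217 ± 6.68 CPM (-0.91 ± 0.04), while Ucp1 had no count. The calcium-regulated carriers of ATP-Mg and phosphate showed no call. Slc25a25 was at 22.4 ± 3.07 and 20.8 ± 1.16 CPM and Slc25a23 at 1.88 ± 0.382 and 1.34 ± 0.236 CPM, both with overlapping libraries.

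**Figure D3:**
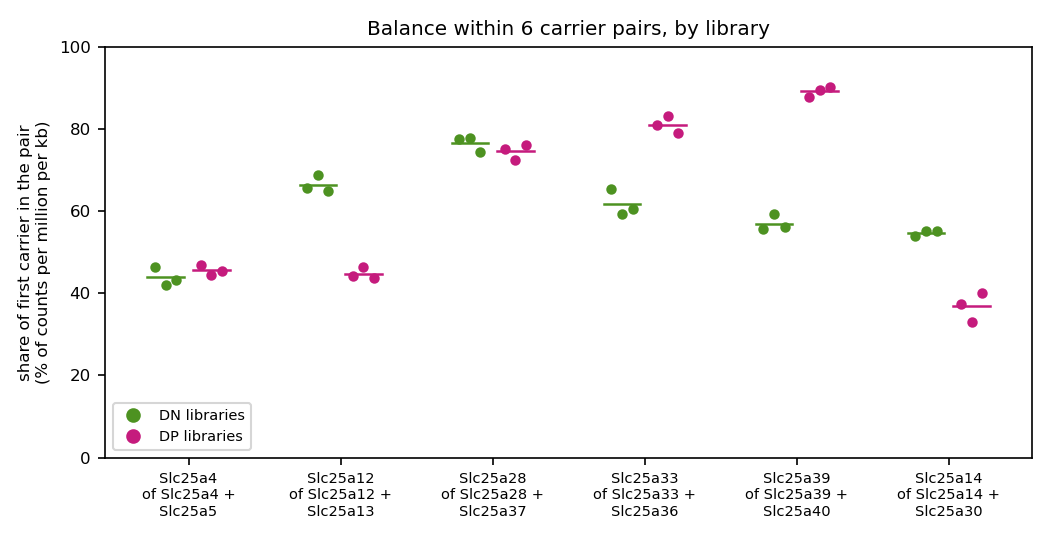
Share of the first-named carrier in 6 pairs of related carriers (vertical axis, percent of the pair's CPM per kilobase of exons) in each library, with lines at the group means (n = 3). The DN and DP libraries do not overlap in 4 pairs, with means of 57.0% and 89.2% for Slc25a39, and overlap for Slc25a4 with Slc25a5 and for Slc25a28 with Slc25a37.

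The plot of pair balance sets these comparisons side by side. In 4 of the 6 pairs with both members tested, the libraries of the subsets did not overlap. With 3 against 3 libraries such separation always gives the smallest p, 0.1, so that p adds nothing to it. Levels of single genes did not overlap for 77% of all tested genes, and no share over other gene pairs was computed. Between 62.0% and 77.4% of aligned coding bases were identical within the 6 pairs, and over all 10 pairs listed the longest identical run was 21 bases.

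Of the carriers with other or little known substrates, 3 of 4 tested were lower in DP. Slc25a45 was at 25.3, 20.1 and 19.8 CPM in DN and 13.04, 10.09 and 10.01 CPM in DP. Replicate 1 was the highest library in each subset, and the groups were clear of each other (-0.99 ± 0.10, adjusted p = 3.47e-12). Slc25a53 fell from 4.89 ± 0.609 to 3.10 ± 0.329 CPM (-0.67 ± 0.18, adjusted p = 0.000947). Slc25a46, which sits in the outer membrane and acts in mitochondrial shape, was at 50.4, 48.7 and 52.2 CPM in DN and 44.6, 46.0 and 47.1 CPM in DP. The fall was small (-0.14 ± 0.06, adjusted p = 0.031), and the call was lost on leaving out DN replicate 1, DN replicate 3, DP replicate 1 or DP replicate 2, with adjusted p-values between 0.0615 and 0.146. Slc25a47, a carrier known from liver, was not called at 0.461 ± 0.353 and 0.831 ± 0.231 CPM (0.71 ± 0.45, adjusted p = 0.15). Without DN replicate 1, which had 11 of its 16 DN counts, the estimate was 1.63 with an adjusted p of 0.0161.

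Carriers of this family are made in the cytosol and reach the inner membrane through the TOM pore, the small TIM chaperones and the TIM22 insertase. All 13 genes listed for this route were tested, and 12 were higher in DP, against 38.3% of all tested genes. The median log2 fold change of the list was 0.78. The receptor Tomm70a, which recognises carrier precursors, rose from 110 ± 2.82 to 221 ± 5.40 CPM (1.00 ± 0.04). The pore protein Tomm40 went from 19.7 ± 2.03 to 53.1 ± 4.02 CPM (1.45 ± 0.07) and the chaperone Timm13 from 25.8 ± 1.58 to 56.7 ± 2.12 CPM (1.13 ± 0.07). Timm9 and Timm10, which together chaperone carriers between the membranes, rose by 1.49 and 1.87 on the log2 scale, and the insertase Timm22 by 0.58. The exception, Timm10b, was at 1.22 to 2.20 CPM and was not called.

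Other transporters of the inner membrane moved less uniformly. Of 9 tested, 4 were higher and 2 lower in DP, with a median of 0.13. The pyruvate carrier genes Mpc1 and Mpc2 were not called (0.13 ± 0.13 and -0.29 ± 0.16). Letm1, a cation exchanger, rose from 160 ± 1.58 to 245 ± 8.43 CPM (0.62 ± 0.04). Over the 11 lists of genes that act with or beside the carriers, 84 genes were tested, 52 were higher and 20 lower in DP. Of all tested genes, 38.3% were higher and 37.6% lower. The lists were chosen with earlier results of these data known, and no set test was made. The plot of these lists shows their spread.

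**Figure D4:**
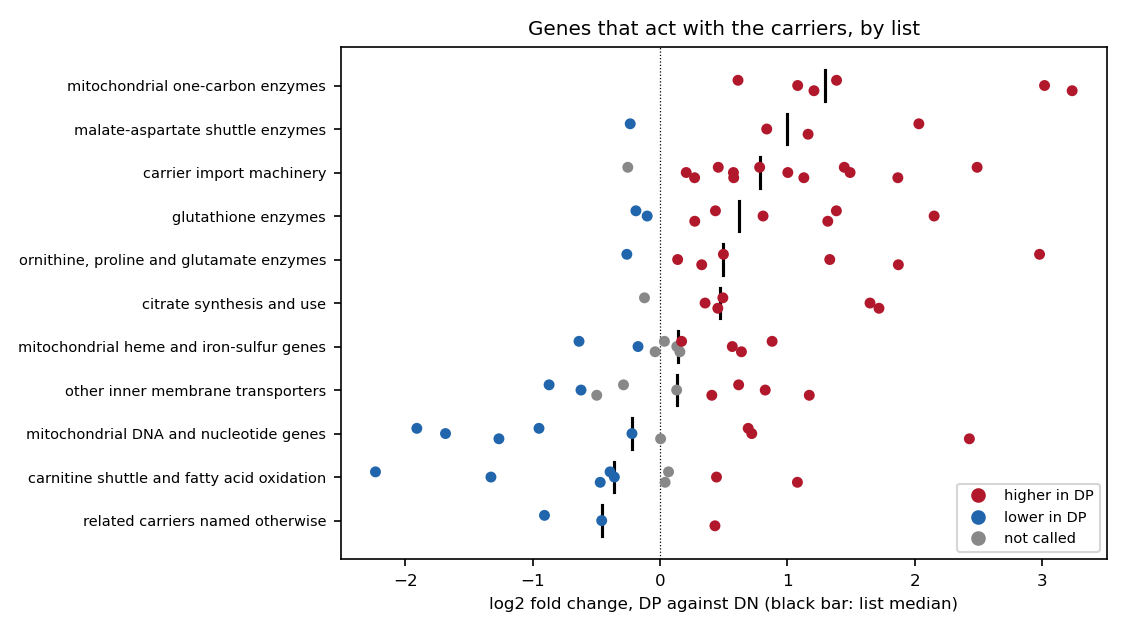
Log2 fold change in DP against DN (horizontal axis) of every tested gene in 11 lists of genes that act with or beside the SLC25 carriers; each point is a gene, coloured by its call, and black bars are list medians. One-carbon enzymes have the highest median, 1.30, and related carriers named otherwise the lowest, -0.46.

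The remaining 13 members did not pass the filter. No library held a count for Slc25a21, Slc25a31, Slc25a48 or Slc25a54. The other 9 were Slc25a18, the ornithine carrier Slc25a2, Slc25a29, which carries basic amino acids, Slc25a24 and Slc25a41 of the ATP-Mg and phosphate group, Slc25a27, a relative of the uncoupling proteins, and Slc25a34, Slc25a35 and Slc25a43. Apart from Slc25a18 none exceeded 14 counts in a library. A floor of 3 counts corresponds to 0.236 to 0.315 CPM in DN and 0.155 to 0.183 CPM in DP, which covers counting error only. In a fit without a filter, Slc25a18 was the only one of the 9 with an adjusted p under 0.05.

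Across the 34 tested carriers, the log2 fold change had a Spearman rho of 0.15 with the log2 mean CPM and of -0.25 with exon length, given as descriptions across genes that share the same libraries. Exons of 11 tested carriers overlap another annotated gene, and 17 of the 34 share no 50-base stretch of their main transcript with any other gene. Beyond Slc25a5, the share of such stretches found elsewhere was over 10% for Slc25a33 (12.6%, with the antisense gene Gm13068), Slc25a36 (11.8%, with a pseudogene at 2 counts in all) and Slc25a40 (10.3%, with a pseudogene at 0 counts).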

How the data were processed

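The authors deposited 1 table of read counts per gene for each of 6 RNA sequencing libraries, not normalized. Per the labels' protocols, antibody-stained spleen cells were sorted and a stranded mRNA kit was used. The submitters' processing notes name STAR 2.7.10a, HTSeq 0.13.5, Trim Galore 0.6.6 and the mm10 build. Their roles, the annotation and whether counting used strand were not given in the sources used here. Without strand, reads from the overlap of genes on opposite strands could not be told apart. The summary rows of the tables include ambiguous reads, at 1.97% to 2.07% of all counts in a library. How such overlaps affected the count of either gene was not tested.

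Groups came from the titles. The 5 summary rows of each table that name no gene (12.6% of counts on average in DN, 9.56% in DP) entered neither library sizes nor tests. DP was compared with DN in edgeR 4.0.16 (R 4.3.3) by its quasi-likelihood F test on the deposited counts. Factors were TMM, filterByExpr had a minimum count of 10, estimation was robust, there was no block, and p-values were adjusted over 11296 genes by the Benjamini-Hochberg method. Standard errors came from the fold change and its F statistic. Shares were compared by an exact two-sided permutation test, whose smallest p is 0.1. Levels per kilobase used the union of exons in GENCODE M21 (mm10), to which all 47 members matched without version. The E-box search used RefSeq promoter windows.

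Within groups, pairs of libraries differed by more than sampling noise (chi-square per degree of freedom 1.96 to 3.26, against 144 to 182 between groups), so none was merged or dropped. The edgeR script was checked on simulated counts in which a small set of genes changed, equally in both directions. That check does not bear on the choice of library scaling. Members, pairs and gene lists were chosen with earlier results of these data known. Values by library are given for up to 8 of the largest rises and falls among called members with at least 5 CPM. They are also given for the 4 most abundant members per kilobase and the members of tested pairs. From the other lists, mainly the 3 genes with the smallest p are given. The other members given by library, and the partner genes named beyond those 3, were chosen after their values were seen. A carrier and a partner gene that these rules took are not reported here.

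Other settings tried were upper-quartile factors, DESeq2 size factors, library totals alone, no filter, at least 50 counts in 3 libraries, DESeq2 1.42.0, limma-voom (limma 3.58.1), a minimum fold of 1.5, an adjusted p of 0.01, a replicate block and each library left out. Thinning DP to DN depth and the length of the main transcript were added after the data were seen.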

Additional observations from a re-analysis of the deposited data

How the results depend on the processing

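The count of carriers higher in DP, 16, was 10 against a minimum fold of 1.5 and 15 to 16 with single libraries left out. The count lower, 8, was 14 with library totals alone, 2 against a minimum fold of 1.5 and 7 to 9 with single libraries left out. The median log2 fold change of carriers, 0.36, was 0.16 with library totals alone, 0.43 without a filter and 0.28 to 0.44 with single libraries left out. The family's share of gene counts was 0.0281 percentage points higher in DP, and 0.0369 as a share of counts per kilobase. Without division by length, the difference in pair share was -18.3 percentage points for Slc25a12 (-21.7 per kilobase), -15.3 for Slc25a14 (-18.0) and 42.7 for Slc25a39 (32.2). With the length of the main transcript it was 23.1 for Slc25a33 (19.2) and 39.9 for Slc25a39. Signs changed for Slc25a16 without DN replicate 1 (0.070, with a range of -0.33 to 0.070 over single libraries left out), and with library totals alone for Slc25a17 (-0.095) and Slc25a44 (-0.063). Apart from the settings' own construction, the cause was not tested. Over 34 carriers and 17 alternatives, 522 of 572 values kept direction and call, 33 lost the call (12 carriers), 14 gained one (8 carriers) and 3 changed sign.

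Deviations from the group means had an r of 0.056, -0.0061 and -0.018 between same-numbered DN and DP libraries. Between differently numbered ones r was -0.035 to 0.040. With 3 libraries a group, such values cannot tell whether the numbers pair the libraries, and the labels do not say. With the replicate number as a block, 16 carriers were higher and 8 lower, with a median of 0.35. Among the lists, citrate genes had 1 lower gene in place of 0 with upper-quartile factors, library totals alone or the block, and other inner membrane transporters had 4 in place of 2 with library totals alone. DP libraries thinned to DN depth again gave 16 higher and 8 lower carriers. The 13 carriers below the filter held at most 18 counts in a library, and a small difference in them was not detectable at this depth.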

Other observations

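DN replicate 2 stood apart from the other DN libraries for several carriers at low counts. Slc25a2, an ornithine carrier, had 8 of its 9 DN counts there, and Slc25a29, a carrier of basic amino acids, had 9 of 12. Slc25a22 was lowest there, at 1.99 CPM against 3.93 and 3.90 CPM. Slc25a35, which shares 1151 exonic bases with Rangrf on the opposite strand, had 10 counts in DN and 10 in DP, while Rangrf itself had 4, 1 and 3 counts in DN and 66, 82 and 64 counts in DP. These genes were picked after their values were seen, and no test was made.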
